A study of Oryza sativa with 12 samples.

Results

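In 93 rice genes, transcript levels were low in leaves given either of 2 agents alone and closer to the level of water-treated leaves when both agents were given together. These members are 93 of the 21381 gene IDs with enough reads to be tested, and of the 88438 IDs counted. The study sequenced RNA from the aerial parts of the indica hybrid rice TU100 at 1 month of age, in 12 libraries labelled as leaf. The groups, with 3 libraries each, were VdAL plus azoxystrobin (called the combination below), azoxystrobin alone, VdAL alone, and water, with no other genotype or strain in the series. The growth label speaks of 4 areas and ties none of them to a treatment, so an area and a treatment cannot be told apart. The labels do not state that the 3 libraries of a group came from separate plants, so every spread given here may be technical.

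Azoxystrobin is a strobilurin fungicide. It binds the quinol oxidation site of the cytochrome bc1 complex (complex III) and stops electron flow through the mitochondrial respiratory chain of fungi. Plant mitochondria have the same complex, and in plants an alternative oxidase can pass electrons from ubiquinol to oxygen without it. The labels do not say what VdAL stands for, and no action is stated for it here. With water, each agent alone and both agents, groups with and without an agent can be compared in the presence and absence of the other. Such a difference between groups may include the area.

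The members were chosen from measured values. Levels are in CPM, read counts brought to a common library size. The sizes carried TMM factors (trimmed mean of M-values), which centre the typical gene between libraries. A member had a Water mean of at least 5 CPM, an azoxystrobin mean and a VdAL mean of at most 0.67 of the Water mean, and a combination mean of at least 0.8 of the Water mean. In addition, all 6 single-agent libraries had to lie below all 6 combination and water libraries. The rule thus uses all 12 libraries, and the low levels under the single agents and the recovered level under the combination are what defined the genes, not findings about them. All 93 members had passed the filter on low counts, because the rule was applied after it.

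The identity of the members is limited to their IDs. All 93 start with BGIOSGA and 0 with EPlOING, against 20081 and 1300 among the tested IDs. The files give no gene names beside the IDs, and a lookup of all 88438 found 0 in a table of 39387 genes of japonica rice, so no name, position or function is given for any member. For the same reason the leaf label could not be checked against marker genes. In bulk tissue, fewer cells of a type and less RNA per cell cannot be told apart.

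Reads assigned to genes ranged from 6444650 to 10144564 per library. The share of reads not aligned uniquely ran from 9.01% in water replicate 3 to 22.4% in VdAL replicate 1. TMM factors were 0.926 to 0.987 in the combination, 1.03 to 1.04 in azoxystrobin, 0.994 to 1.05 in VdAL and 0.952 to 0.982 in water, so 5 of the 6 single-agent libraries had factors above 1 and all others below. That split runs along the groups that the rule sets apart. Counts with other scalings are given below, and the part of the factors in the result was not tested.

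Across the members, the combination libraries did not all sit at the same height. Relative to each gene's Water mean, the median member stood at 0.812, 1.09 and 0.829 in combination replicates 1, 2 and 3. It stood at 0.522, 0.569 and 0.508 in the azoxystrobin libraries and at 0.550, 0.540 and 0.450 in the VdAL libraries, against 1.04, 0.864 and 1.09 in the water libraries. Combination replicate 2 was thus level with the 2 higher water libraries, while combination replicates 1 and 3 lay a little below the lowest water library, replicate 2. For all 15645 genes with a Water mean of at least 5 CPM, the same median was 0.967 to 1.005 in every library.

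**Figure D1:**
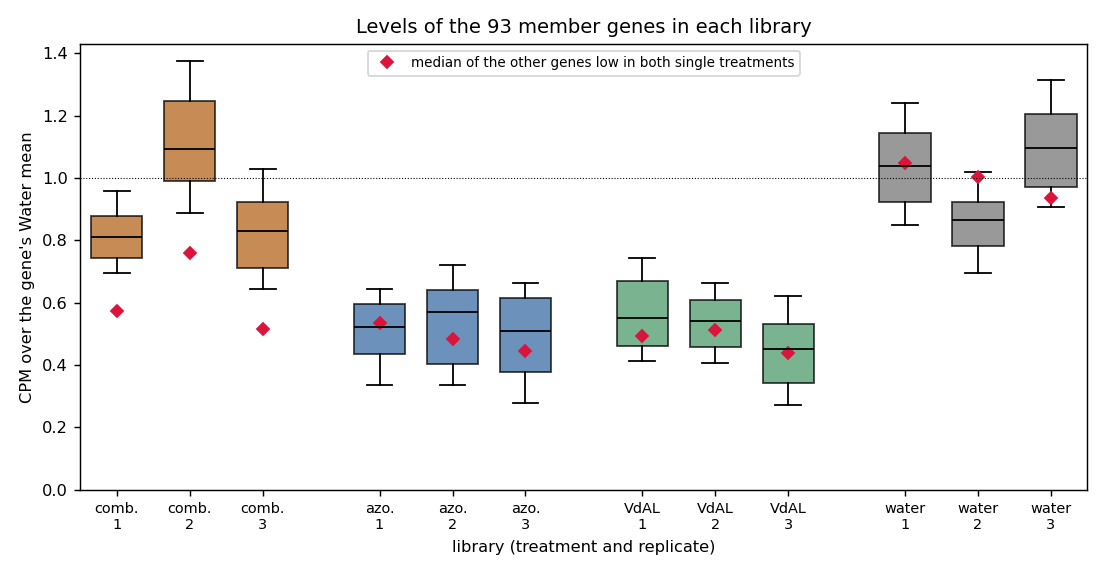
Level of the 93 members in each library, as CPM over the gene's own Water mean (vertical axis, linear). Boxes run from the 25th to the 75th percentile of the members, the line is the median and whiskers run to the 10th and 90th percentiles; comb. is VdAL plus azoxystrobin and azo. is azoxystrobin. Diamonds give the median of the 501 other genes that were low under both single agents. Combination replicate 2, at a median of 1.09, stands above combination replicates 1 and 3, at 0.812 and 0.829.

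Combination replicate 2 was the highest of the 3 combination libraries in 76 of the 93 members, or 81.7%, against 36.0% of all genes with a Water mean of at least 5 CPM. Water replicate 2 was the lowest of the water libraries in 62 members, or 66.7%, against 31.8% of all such genes. Both held at once in 50 members. VdAL replicate 3 was the lowest VdAL library in 60 members, or 64.5%, against 28.3%. In azoxystrobin no library was the lowest in more than 37 members.

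Together the members took up a small part of the assigned reads. Their counts summed to 0.855%, 1.13% and 0.861% of the tested reads in the combination libraries. The sums were 0.581%, 0.618% and 0.585% in azoxystrobin and 0.603%, 0.643% and 0.480% in VdAL, against 1.16%, 0.853% and 1.14% in water. On this sum, in which abundant genes weigh most, water replicate 2 lay just below combination replicates 1 and 3 and above every single-agent library.

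The members covered a wide range of abundance. Water means ran from 5.16 to 1384 CPM with a median of 36.6 CPM, against a median of 25.5 CPM for all genes with at least 5 CPM in water. The Water mean was 100 CPM or more in 22 members and under 10 CPM in 13. CPM is not divided by gene length, so these levels do not rank the genes by number of transcripts.

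The depth of the decrease under the single agents varied among members. The mean of the 6 single-agent libraries was 0.174 to 0.646 of the Water mean, with a median of 0.535. In azoxystrobin alone the members stood at 0.140 to 0.659 of the Water mean (median 0.524) and in VdAL alone at 0.209 to 0.668 (median 0.515). Both single-agent means were at or below 0.5 of the Water mean in 30 members. These values come from the choice of genes and are a description.

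The gene with the deepest decrease was BGIOSGA029416. It had 23.9, 45.8 and 20.9 CPM under the combination libraries, 10.8, 2.53 and 2.05 CPM under azoxystrobin and 8.82, 9.58 and 4.65 CPM under VdAL, against 35.3, 35.9 and 39.2 CPM in water. Its water libraries were tightly grouped, and azoxystrobin replicate 1 stood slightly above VdAL replicates 1 and 2. The log2 fold change against water was −2.82 (SE 0.45) in azoxystrobin, −2.27 (SE 0.43) in VdAL and −0.28 (SE 0.39) in the combination. Every combination and water library was at least 1.5 times the highest single-agent library in only 2 members, this gene and BGIOSGA003364, which was named after its values were seen. BGIOSGA003364 had 20.3, 36.04 and 21.4 CPM under the combination, 13.1, 9.14 and 6.501 CPM under azoxystrobin and 11.9, 10.9 and 7.99 CPM under VdAL, against 23.7, 21.2 and 23.2 CPM in water.

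BGIOSGA016950 followed, with 18.2, 47.9 and 13.9 CPM under the combination, 8.64, 2.95 and 2.05 CPM under azoxystrobin and 6.56, 9.58 and 3.44 CPM under VdAL, against 34.1, 29.1 and 23.4 CPM in water. As in BGIOSGA029416, combination replicate 2 was the highest of all 12 libraries and azoxystrobin replicate 1 the highest of its group. The combination mean of 26.7 ± 18.5 CPM (SD, n = 3) therefore rests largely on 1 library, and the other 2 combination libraries lay below every water library.

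BGIOSGA026621 had 37.8, 72.1 and 32.5 CPM under the combination, 15.4, 17.1 and 13.5 CPM under azoxystrobin and 19.9, 22.4 and 11.4 CPM under VdAL, against 57.0, 46.9 and 50.8 CPM in water. Here too combination replicate 2 lay above and combination replicates 1 and 3 below all water libraries. BGIOSGA026049 averaged 15.1 ± 4.15 CPM under the combination, 4.79 ± 0.309 CPM under azoxystrobin and 7.25 ± 2.63 CPM under VdAL, against 18.5 ± 6.06 CPM in water (SD, n = 3 each). Its combination and water libraries overlapped, at 12.3 to 19.9 CPM against 12.1 to 24.1 CPM. BGIOSGA001894 averaged 87.9 ± 24.7 CPM under the combination, 26.2 ± 2.16 CPM under azoxystrobin and 29.4 ± 9.66 CPM under VdAL, against 81.4 ± 32.8 CPM in water. In that gene water replicate 2, at 45.2 CPM, was the lowest of the 6 combination and water libraries.

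Among these 6 deepest decreases, BGIOSGA028658 was the least abundant, with 4.79 ± 1.26 CPM under the combination, 1.71 ± 0.629 CPM under azoxystrobin and 1.70 ± 0.662 CPM under VdAL, against 5.18 ± 0.615 CPM in water (SD, n = 3 each). It rests on few reads, 21 to 41 per combination library, 9 to 20 per azoxystrobin library and 10 to 24 per VdAL library, against 35 to 46 per water library.

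**Figure D2:**
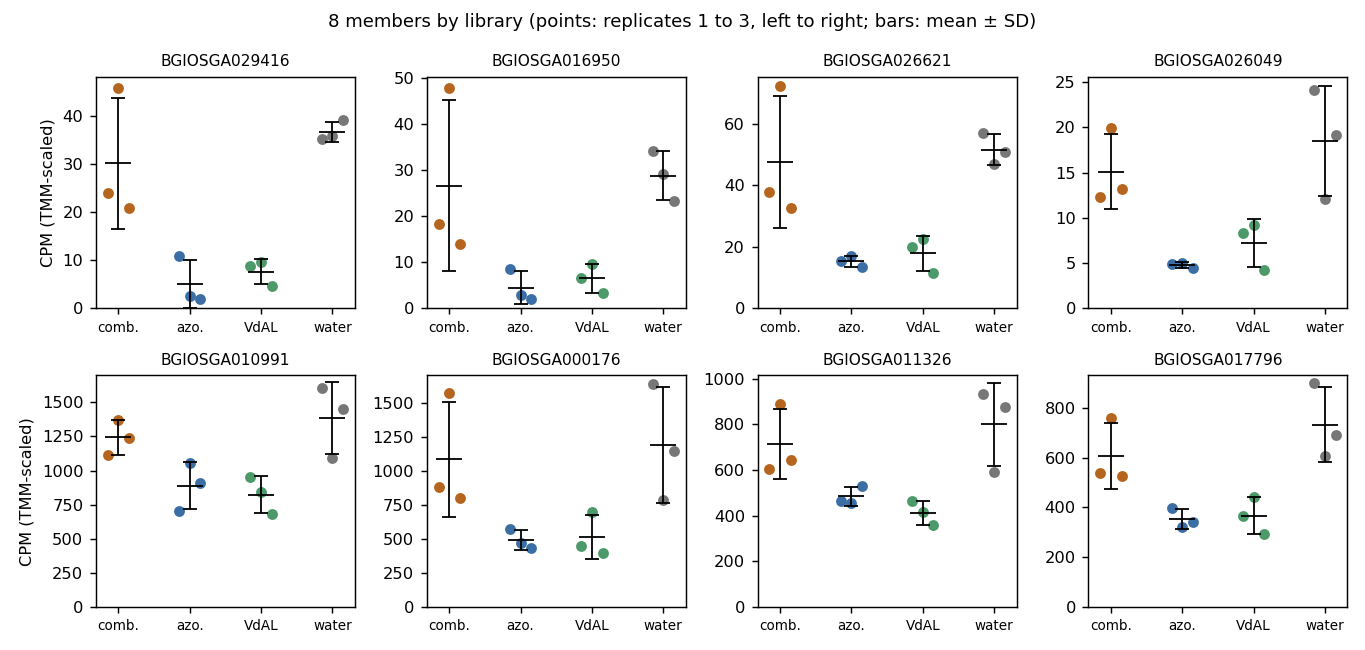
CPM (TMM-scaled, linear axis from 0) of 8 members in the combination (comb.), azoxystrobin (azo.), VdAL and water. The upper row holds the 4 genes with the deepest decrease under the single agents and the lower row the 4 most abundant; points are replicates 1, 2 and 3 from left to right and bars are the mean ± SD of 3 libraries. In the upper row combination replicate 2, such as 45.8 CPM for BGIOSGA029416, lies above the other combination libraries.

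The most abundant member was BGIOSGA010991, with 1117, 1373 and 1239 CPM under the combination, 705, 1055 and 909 CPM under azoxystrobin and 954, 840.1 and 678 CPM under VdAL, against 1608, 1092 and 1452 CPM in water. The groups were close, since the highest azoxystrobin library lay just below water replicate 2. Its log2 fold change against water was −0.64 (SE 0.17) in azoxystrobin, −0.75 (SE 0.17) in VdAL and −0.15 (SE 0.17) in the combination.

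BGIOSGA000176 showed a deeper decrease at a similar abundance. It had 883, 1574 and 803 CPM under the combination, 575, 473 and 430.2 CPM under azoxystrobin and 445, 697 and 394 CPM under VdAL, against 1638, 786 and 1145 CPM in water. The log2 fold change was −1.27 (SE 0.27) in azoxystrobin, −1.22 (SE 0.27) in VdAL and −0.13 (SE 0.27) in the combination. The ranges of combination and water nearly coincided.

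In the next 4 members by abundance the single-agent means were again the lowest, as the rule requires. BGIOSGA011326 averaged 713 ± 153 CPM under the combination, 484 ± 41.6 CPM under azoxystrobin and 411 ± 52.3 CPM under VdAL, against 799.7 ± 183 CPM in water. BGIOSGA017796 averaged 607 ± 133 CPM under the combination, 353 ± 38.6 CPM under azoxystrobin and 366 ± 73.2 CPM under VdAL, against 732 ± 151 CPM in water. For BGIOSGA019621 the values were 491 ± 116, 306 ± 22.8 and 282 ± 72.7 CPM under the combination, azoxystrobin and VdAL, against 547 ± 112 CPM in water (SD, n = 3 each). In these 3 genes combination replicate 2 was the highest combination library and water replicate 2 the lowest water library.

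BGIOSGA025897 differed in that its combination mean was above its Water mean. It had 579, 792 and 618 CPM under the combination, 296, 428 and 402 CPM under azoxystrobin and 487, 311 and 250.5 CPM under VdAL, against 555, 545 and 764 CPM in water. VdAL replicate 1 came near the lowest water library, while the other VdAL libraries were far lower.

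The combination mean reached or passed the Water mean in 16 members and lay below it in 77. The ratio of combination to water ran from 0.802 to 1.40 with a median of 0.905, and it was under 0.9 in 45 members. At the top stood BGIOSGA030767, with 13.1, 23.7 and 15.4 CPM under the combination, 5.47, 7.31 and 6.74 CPM under azoxystrobin and 5.33, 3.67 and 3.74 CPM under VdAL, against 9.40, 9.57 and 18.3 CPM in water. Water replicate 3 stood apart from the other water libraries of that gene. BGIOSGA011289 came next, at 8.13 ± 2.33 CPM under the combination against 6.86 ± 2.57 CPM in water (SD, n = 3 each), a ratio of 1.19.

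At the bottom of that range were BGIOSGA009190 and BGIOSGA008285. BGIOSGA009190 had 160.3, 171 and 154 CPM under the combination, 105, 151 and 122 CPM under azoxystrobin and 125, 108 and 93.0 CPM under VdAL, against 219, 159 and 227 CPM in water. Its combination libraries were even, lying just above azoxystrobin replicate 2 and around water replicate 2. BGIOSGA008285 averaged 21.0 ± 2.81 CPM under the combination, 16.3 ± 2.85 CPM under azoxystrobin and 15.4 ± 3.34 CPM under VdAL, against 26.2 ± 6.33 CPM in water. Between its highest single-agent library, at 19.0 CPM, and its lowest water library, at 19.2 CPM, there was almost no gap.

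The limits of the rule cut through continuous values. For the limit of 0.8 on the combination, BGIOSGA009190 and BGIOSGA008285 stood just inside at 0.802 and 0.803 of water, and BGIOSGA029415 and BGIOSGA025442 just outside at 0.799 and 0.796. For the limit of 0.67 on the single agents, the higher single-agent mean was 0.668 and 0.664 of water in BGIOSGA017686 and BGIOSGA011135, and 0.673 and 0.677 in BGIOSGA024505 and BGIOSGA016979, which were left out. For the limit of 5 CPM in water, BGIOSGA017631 and BGIOSGA028658 were inside at 5.16 and 5.18 CPM, and BGIOSGA004224 and BGIOSGA003529 outside at 4.998 and 4.71 CPM. The lowest combination or water library was 1.002 and 1.003 times the highest single-agent library in BGIOSGA017780 and BGIOSGA012256, which are members, and 0.999 and 0.997 times in BGIOSGA011311 and BGIOSGA011517, which are not. The condition on separate libraries alone kept 273 genes out, the limit on the single agents 84, the limit on the combination 60 and the limit on the water level 16.

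The members are one end of a larger set. The conditions on water and the single agents, without any on the combination, were met by 594 genes, of which the 93 members are 15.7%. In those 594 genes the combination mean had a median of 0.668 of the Water mean, with a 10th percentile of 0.412 and a 90th percentile of 0.906. It was above both single-agent means in 475 genes, at least 0.8 of water in 144 and at least 1 in 21. The ratio had no gap at the limit, and 109 genes lay between 0.7 and 0.8, just short of the limit. A low level under the single agents and a low level relative to water share the same water libraries, so part of this shape follows from the choice.

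**Figure D3:**
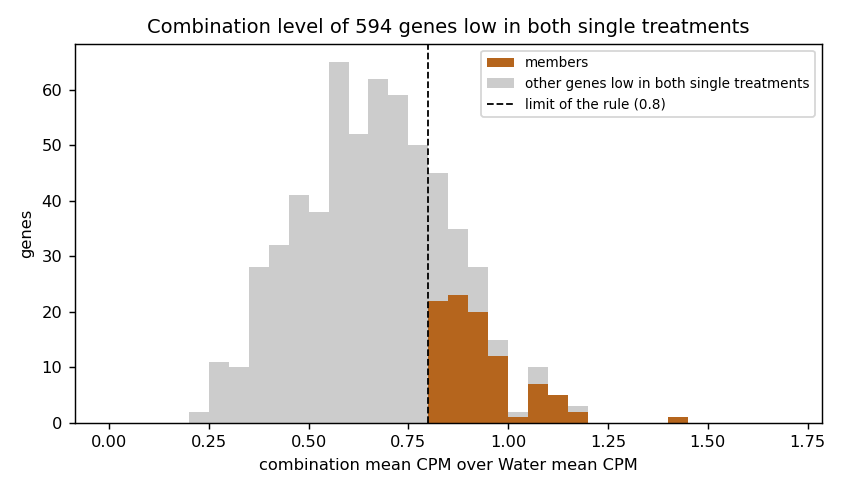
Combination mean CPM over Water mean CPM (horizontal axis) for the 594 genes that were low under both single agents, as a stacked count of genes per bin of 0.05. Brown bars are the 93 members, grey bars the 501 other genes, and the dashed line is the limit of 0.8. The distribution has its median at 0.668 and no gap at the limit.

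The 501 other genes were about as low under the single agents as the members, with a median of 0.495 of the Water mean against 0.535. Their combination libraries stood at medians of 0.574, 0.760 and 0.515 of the Water mean, with replicate 2 again the highest. In water their medians were 1.05, 1.004 and 0.936, so the low position of water replicate 2 in the members was not shared by these genes. No test was made of this difference, because the rule used the same values.

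The rule with the treatments exchanged gave far fewer genes. Genes low in azoxystrobin and in the combination, with VdAL near water, numbered 9. Genes low in VdAL and in the combination, with azoxystrobin near water, numbered 3. The mirrored rule, with both single agents at least 1.49 times water and the combination at most 1.25 times water, was met by 1 gene, and its 2 exchanged forms by 3 genes each. The counts depend on the scaling. With library sizes alone, 50 genes were low under the single agents and 15 were high, against 93 and 1 with TMM factors, and all 50 were members. With the median-of-ratios (RLE) factors the counts were 87 and 3, and with upper-quartile factors 86 and 5. Library sizes alone shifted the median log2 fold change of all tested genes against water to 0.07 in azoxystrobin and 0.08 in VdAL, from near 0.

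A library that took no part in the choice gives a reading that the rule did not fix. The rule was therefore applied to 11 libraries at a time, and the chosen genes were looked up in the one left out. A left-out single-agent library was asked to lie below all combination and water libraries, and a left-out combination or water library above all single-agent libraries. In combination replicates 1, 2 and 3 this was so for 79.4% of 136 genes, 96.1% of 51 genes and 71.1% of 149 genes. The limit of 0.8 of the Water mean was not asked of the left-out library. The median of the chosen genes there was 0.772, 1.05 and 0.691 of the Water mean, so only replicate 2 had a median above that limit. The 11 other libraries of a chosen gene were already apart, and the asked side covers 6 of 12 rank positions, or 50%. A value in the gap between the sides counts as on the asked side, so 50% is not a chance level here. Among all 15645 genes with a Water mean of at least 5 CPM, 14.6%, 22.9% and 19.0% took the asked side. Those genes were not chosen for being apart, so these shares are not a chance level either. Genes of a library share its depth and scaling, so no test was made of the shares.

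The left-out azoxystrobin libraries kept the low side in 80.2% of 106 genes, 74.4% of 125 and 82.3% of 113. The left-out VdAL libraries did so in 62.5% of 152 genes, 85.6% of 104 and 100% of 88. VdAL replicate 1, the library with the most reads not aligned uniquely, had the lowest share of the 6, and the part of those reads in this was not tested.

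Water replicate 2 stood apart in this reading. Without it the rule chose 194 genes, and in the left-out library only 38.7% of them lay above all single-agent libraries. Among all 15693 genes with a mean of at least 5 CPM in the other water libraries, 20.6% did so. The median of the 194 genes in that library was 0.650 of the mean of the other water libraries. For water replicates 1 and 3 the shares were 88.6% of 105 genes and 98.7% of 75 genes, beside 24.6% and 24.7% of all such genes. A reading of this kind covers the spread between libraries of a group and says nothing about what separates the groups themselves.

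**Figure D4:**
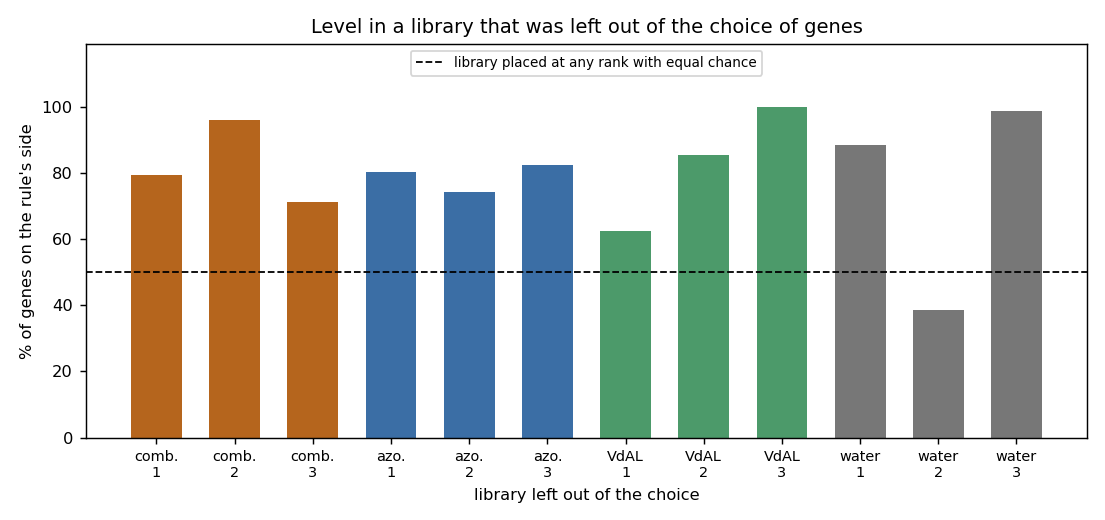
Share of genes (percent, linear axis from 0) that lay on the side asked by the rule in a library left out of their choice: below all combination and water libraries for azoxystrobin (azo.) and VdAL, above all single-agent libraries for the combination (comb.) and water. Bars are the genes chosen from the other 11 libraries, and the dashed line is the 50% of a library that takes any rank with equal chance. The rule favours genes with a gap between the sides, so this line is not a chance level for them. Shares run from 38.7% in water replicate 2 to 100% in VdAL replicate 3.

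The number of genes that met the rule changed with the libraries used. Without combination replicate 2 it was 51, of which 48 were among the 93 members. Without water replicate 2 it was 194, with 62 of the 93 among them. It was 152 without VdAL replicate 1 and 149 without combination replicate 3. When combination replicates 1 and 3 alone were averaged, 48 of the 93 members reached 0.8 of the Water mean. A level restored in the combination, as the set is labelled, thus rests on combination replicate 2 for the other members.

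The comparison that the rule did not make is that between the single agents, although asking both to be low limits how far apart they can be. In edgeR's quasi-likelihood test of VdAL against azoxystrobin, 0 of the 93 members had an adjusted p under 0.05 (Benjamini-Hochberg over 21381 genes), where 0% of all tested genes did. At an unadjusted p under 0.05 there were 0 members, against 3.36% of all tested genes. DESeq2 called 0 members, where it called only 7 of all 21381 tested genes. The log2 difference ran from −0.61 to 0.62 with a median of 0.002, and VdAL was above azoxystrobin in 46 members by mean CPM. The 95% interval lay within 2-fold in either direction for 82 members, and its median width to either side was 0.48. For the other members the interval reached 2-fold or beyond.

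The 2 members with the smallest p in that comparison went in opposite directions. BGIOSGA006349 had 38.4, 35.6 and 19.6 CPM under VdAL, against 31.7, 17.9 and 15.4 CPM under azoxystrobin, 0.52 higher on the log2 scale (95% interval −0.02 to 1.06), with an adjusted p near 1 in edgeR's test. BGIOSGA030985 had 11.4, 7.48 and 5.87 CPM under VdAL, against 9.49, 14.1 and 13.2 CPM under azoxystrobin, which gave −0.57 on the log2 scale (95% interval −1.16 to 0.03), again with an adjusted p near 1. In both genes the libraries of the 2 groups overlapped. Without azoxystrobin replicate 1 the difference for BGIOSGA006349 was 0.91, and without VdAL replicate 1 that for BGIOSGA030985 was −0.88, neither of them called.

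**Figure D5:**
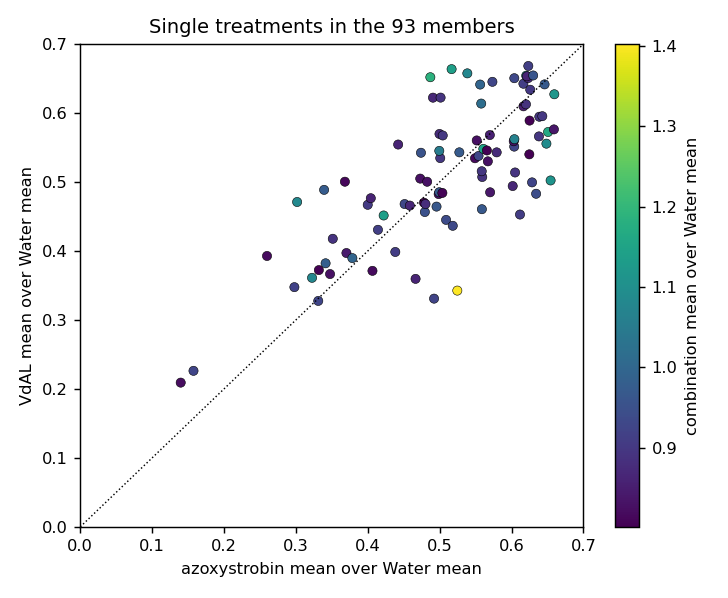
VdAL mean over Water mean (vertical axis) against azoxystrobin mean over Water mean (horizontal axis) for the 93 members, coloured by combination mean over Water mean. The dotted line marks equal levels in the single agents. Both ratios share the Water mean and both were limited to 0.67 by the rule; 46 members lie above the line.

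For the contrasts that the rule used, the calls of the edgeR test are given as a description. In azoxystrobin against water 56 of the 93 members had an adjusted p under 0.05 and were lower, where 2.12% of all tested genes were. In VdAL against water it was 62 members, where 2.84% of all tested genes were lower. The median log2 fold change of the members was −0.92 in azoxystrobin and −0.96 in VdAL, against −0.02 and −0.01 for all tested genes. The counts moved with single libraries. For azoxystrobin the count was 13 without azoxystrobin replicate 3 (111 of all 21903 tested genes) and 21 without water replicate 1 (204 of 21962). It was 35 without azoxystrobin replicate 1, azoxystrobin replicate 2 or water replicate 3 (440 of 21909, 263 of 21952 and 458 of 21931). For VdAL it was 5 without VdAL replicate 3 (116 of 21947) and 32 without water replicate 1 (336 of 21962). It was 37 without water replicate 3 (482 of 21931). With the library's share of multiply aligned reads as a covariate it was 31 (476 of 21381).

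In the combination against water 0 members were called lower, where 1.22% of all tested genes were, a contrast that the limit of 0.8 bounds. At an unadjusted p under 0.05, in either direction, there were 0 members, beside 14.4% of all tested genes. DESeq2 called 0 members lower, beside 473 of 21381 genes. The limit of 0.8 keeps members from lying far below water, so these counts describe the choice. The median log2 fold change was −0.14, and the 95% interval lay within 2-fold for 89 of the 93 members. A value within that interval does not show that the combination and water were equal.

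The combination against each single agent called almost none of the members in the same test. Against azoxystrobin 0 of 93 were called higher, where 0% of all tested genes were, with 86 members at an unadjusted p under 0.05, beside 12.04% of all tested genes. Against VdAL 1 member was called higher, where 0.00935% of all tested genes were, with 89 members at an unadjusted p under 0.05, beside 12.8% of all tested genes. That member was BGIOSGA030767, with a log2 difference of 2.02 (SE 0.31). The median log2 difference of the members was 0.82 against azoxystrobin and 0.81 against VdAL, and all 93 were above 0, as the rule requires.

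Those counts depended on the tool and on single libraries. DESeq2 called 38 members higher in the combination than in azoxystrobin and 42 higher than in VdAL, where it called 0.617% and 1.01% of all tested genes. Against azoxystrobin edgeR's count was 15 without water replicate 2, beside 41 of all 21932 tested genes. It was 7 without VdAL replicate 3 (12 of 21947 genes) and 5 without azoxystrobin replicate 1 (7 of 21909 genes). It was 1 without azoxystrobin replicate 2 (4 of 21952 genes) or water replicate 3 (3 of 21931 genes). Against VdAL the count was 27 without water replicate 2 (110 of 21932 genes) and 13 without water replicate 3 (58 of 21931 genes). It was 11 without VdAL replicate 1 (38 of 21938 genes) and 2 without azoxystrobin replicate 1 (4 of 21909 genes). It was 0 without azoxystrobin replicate 3, without VdAL replicate 2 or 3, or without combination replicate 2 or 3, with the replicate number as a block, and with the same covariate.

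The members also varied together within groups. The rule can shape this, because it bounds the group means and the order of the libraries. After the group mean of each gene was taken from its log2 CPM, the median Pearson correlation over the 4278 pairs of members was 0.34 across the 12 libraries, and 79.5% of pairs were positive. For the 501 other genes low under both single agents the median was 0.22, and for all genes with a Water mean of at least 5 CPM it was −0.0006, with 49.9% of pairs positive. The pairs share their libraries and scaling, and the rule used these libraries, so the correlation is a description. The spread within groups was wider than in all such genes both in the members and in the 501 other genes low under both single agents. The median coefficient of variation of the members was 20.7% in the combination, 19.4% in azoxystrobin, 21.2% in VdAL and 19.6% in water, against 12.02%, 12.8%, 13.3% and 15.9% for all genes in the same groups. In the 501 other genes it was 23.8%, 21.2%, 20.5% and 18.2% in these groups.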

How the data were processed

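The authors deposited a table of raw read counts per gene ID for each of the 12 libraries. The submitters' processing notes name TopHat2 2.1.0, HTSeq 0.6.1 and edgeR 3.16.3, without order or settings. They also name a pig genome build, while 0 of the IDs carry the prefix of pig genes, so no coordinates are given. The counting mode, strand setting and annotation are not stated in any source used, and reads of overlapping genes or near-identical copies may not be told apart. Rows for unassigned reads, with 9.01% to 22.4% of a library's reads not aligned uniquely, entered neither library sizes nor tests.

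Groups came from the treatment label and replicate numbers from the sample titles. IDs were filtered with filterByExpr (minimum count 10) and scaled by TMM in edgeR 4.0.16 (R 4.3.3). A group-means model over all 12 libraries was tested with glmQLFit and glmQLFTest, with p-values adjusted by Benjamini and Hochberg over 21381 genes. The SE of a log2 fold change is its size over the square root of F. Within-group correlations used log2 CPM (prior count 2). The left-out reading used the TMM scaling of all 12 libraries. Alternatives were other scalings, DESeq2 1.42.0, no filter, a replicate block, other limits of the rule and leaving out each library. A fit with each library's percentage of multiply aligned reads as a covariate, and the other scalings of the exchanged rules, were added after seeing the data. The edgeR procedure was tested on simulated data.

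Named members were the 6 with the lowest ratio of single agents to water, the 6 most abundant in water, the 2 with the smallest p between the single agents, the 2 highest and 2 lowest in combination over water, and genes at the limits. BGIOSGA030767 was also named as the only member called against VdAL. The members and lists were chosen with earlier results of these data known. No same-group libraries agreed within sampling noise (lowest chi-square per degree of freedom 4.36).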

Additional observations from a re-analysis of the deposited data

Results flagged for a closer look

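The interaction, which compares the effect of one agent with and without the other, had a positive value at an adjusted p under 0.05 in edgeR's test in 90 of the 93 members, where 3.36% of all tested genes did. The rule that chose the members builds this difference in, so the count is a description of the choice. The groups of 3 libraries were too small for a check of outlying samples.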

How the results depend on the processing

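The number of genes that met the rule was 93, and it was 86 to 91 with RLE factors, upper-quartile factors or no filter. It was 50 with library sizes alone, 30 with single-agent means limited to 0.5 of water, 48 with a combination limit of 0.9, 594 with no limit on the combination and 366 with means only. Leaving out 1 library gave 51 to 194 genes. Members called lower than water ranged from 13 to 60 for azoxystrobin over the left-out libraries, beside 111 to 568 of all tested genes. For VdAL they ranged from 5 to 63, beside 116 to 649 genes. With the percentage of multiply aligned reads as a covariate the VdAL count was 31, beside 476 of 21381 genes. Members called higher in the combination than in azoxystrobin numbered 0, but 38 with DESeq2, 63 without a filter and 0 to 15 with 1 library left out. Against VdAL the count was 1, but 3 with library sizes alone, 42 with DESeq2, 64 without a filter, 0 with the covariate and 0 to 27 with 1 library left out. Of all tested genes, DESeq2 called 132 and 217 of 21381 higher in these 2 comparisons. Without a filter 682 and 736 of 36532 genes were called higher, against 0 and 2 of 21381 in the main fit. The cause of these shifts was not tested. With the replicate block, 44 members were called lower than water in azoxystrobin and 59 in VdAL, beside 413 and 541 of 21381 genes. In the same fit 0 members and 0 of all tested genes were called higher in the combination than in VdAL. Positive interactions ranged from 67 to 90 members with 1 library left out, beside 281 to 1023 of all tested genes. For the 18 members named by the rule for named genes, all 648 estimates of single agents against water under 18 alternatives were below 0, and 457 of them were called. The members were chosen for low levels under both single agents, so these signs and calls describe the choice and do not test it. Same-numbered libraries of different groups had deviations that correlated at −0.20 to 0.10, over 0.1 in 1 of 18 pairs. No strong shared shift by replicate number was thus seen, and whether the numbers pair the samples cannot be told from this.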
